A study of Mus musculus with 6 samples.

Results

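The genes described are 10 components of sodium, chloride and water transport in the lung. They are the 3 subunits of the epithelial sodium channel (ENaC), *Scnn1a*, *Scnn1b* and *Scnn1g*, the kinases *Sgk1* and *Wnk1*, the ubiquitin ligase *Nedd4l*, the water channels *Aqp1*, *Aqp4* and *Aqp5*, and the chloride channel *Cftr*. They were chosen by gene symbol, and all 10 were found among the 54532 genes counted. RNA came from lung tissue of 3 GR+/+ and 3 GRdim/dim mice, 1 library per mouse. In GRdim/dim mice a germline point mutation in *Nr3c1*, the gene of the glucocorticoid receptor (GR), prevents the receptor from dimerizing normally in all tissues, and GR+/+ mice are their littermates on the same mixed background (129/SvEv x C57BL/6). All mice were 10 to 16 weeks old, and the GR+/+ mice were 2 females and 1 male, the GRdim/dim mice 1 female and 2 males. Every mouse, studied on a day of its own, was anesthetized with sevoflurane, ketamine, midazolam and fentanyl, ventilated, and bled into hemorrhagic shock (HS), with the mean arterial pressure held at 35 mmHg over 1 h. Each then received its own blood back, colloids and norepinephrine over 4 h of resuscitation before the lung was taken. No lung without shock was compared, so the values describe the genotypes after HS and not the response to HS.

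Alveolar fluid is cleared by active sodium transport. Sodium enters the apical side of alveolar and airway epithelial cells through ENaC, is pumped out at the basolateral side by the Na/K-ATPase, and water follows along the osmotic gradient and through aquaporins. The number of channels at the surface is limited by *Nedd4l*, which binds a proline-rich PY motif at the end of each ENaC subunit and marks the channel for removal, and SGK1 phosphorylates NEDD4L and thereby weakens that binding. Glucocorticoids are known inducers of *Scnn1a* and *Sgk1*, which is why this group is of interest in a mouse with an impaired GR.

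The PY motif is the shared feature through which the subunits and the ligase meet, so its coding sequence is shown for the 3 subunits. A motif was taken as the in-frame codons CCN, CCN, any codon, and TAT or TAC, which encode a pair of prolines, any residue and a tyrosine. Each subunit held 1 such motif, in the last exon. Of the other genes searched, *Sgk1* (codon 295 of 431) and *Wnk1* (codon 944 of 2377) also held 1 each, and *Aqp1*, *Aqp5* and *Cftr* held 0, while *Nedd4l* and *Aqp4* were not searched. The stretches below are 30 coding bases on the + strand of GRCm38, read from GENCODE M21, with the motif codons in capitals.
*Scnn1a*, chr6:125343987-125344016, exon 12 of 12: acagcccctCCACCTGCCTATgctacccta
*Scnn1b*, chr7:121917976-121918005, exon 13 of 13: gggactccaCCCCCCAACTATgactccctg
*Scnn1g*, chr7:121767460-121767489, exon 13 of 13: ggcacaccaCCCCCCAGATACaataccttg
The motif began at codon 671 of 700 in *Scnn1a*, at codon 615 of 638 in *Scnn1b* and at codon 630 of 655 in *Scnn1g*. It thus lay within the last 30 codons of all 3 subunits.

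Promoter sequences were looked at because the GR dimer binds a palindromic element. Promoter windows from RefSeq (GRCm38.p6), which run from 250 bases before to 50 bases after a start site, were found for 7 of the 10 genes and not for *Scnn1a*, *Nedd4l* or *Aqp4*. They were searched for the palindrome made of AGAACA, any 3 bases and TGTTCT, which reads the same on both strands, and for the 6-base element AGAACA on either strand, which is contained in the palindrome. The palindrome was present in 3 of 32851 windows of all genes (0.00913%), and 1 of these was among the 6 windows of *Sgk1*. It lay on chromosome 10, from 189 to 175 bases before that start site, in no annotated exon. The 45 bases around it are shown with the palindrome in capitals, from the + strand.
*Sgk1*, chr10:21993686-21993730: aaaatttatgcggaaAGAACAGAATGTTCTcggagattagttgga
The 6-base element was present in 6233 windows of all genes (19%). Of the 12 windows of the 7 genes searched, 3 held it, all of *Sgk1*. The windows of *Tsc22d3* and *Stk39*, which are described below, held no palindrome. The 6-base element occurred 1 time in a window of *Tsc22d3* and was absent from that of *Stk39*. A match describes the letters in the window and is no measurement of receptor binding.

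The libraries held 16361747 to 32082940 counted reads in GR+/+ and 15687734 to 24444604 in GRdim/dim. All 10 genes passed the filter on low counts, with 69 to 477 reads per library for *Aqp4*, 335 to 1577 for *Cftr* and at least 1466 for each of the other 8. *Nr3c1* itself measured 138, 145 and 162 CPM in GR+/+ and 159, 150 and 120 CPM in GRdim/dim, where CPM stands for the reads of a gene relative to the scaled total of its library (counts per 1e6 reads). The genotypes overlapped (log2 fold change -0.05, standard error 0.17, edgeR adjusted *p* = 0.961). A point mutation does not have to change this level, so it is no check of the labels.

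None of the 10 genes was a differentially expressed gene (DEG), which needed an adjusted *p* below 0.05 and a log2 fold change above 0.5 or below -0.5, where positive values are higher in GRdim/dim. Over all 16568 genes tested, 28 were DEGs (0.169%). With DESeq2, 0 of the 10 genes and 1.71% of all genes with an adjusted *p* were DEGs, and with edgeR's likelihood-ratio test 0 of the 10 genes and 1.48% of all genes. Of the 10 genes, 1 had an unadjusted *p* below 0.05, against 9.6% of all genes. The 3 libraries of each genotype overlapped for all 10 genes, whereas 14.8% of all genes did not overlap. Their log2 fold changes had a median of 0.04, against 0.01 over all genes, and a median size regardless of sign of 0.12, against 0.21. For 8 of the 10 genes the 95% interval of the fold change lay within a 2-fold change either way, as it did for 64.6% of all genes. The exceptions were *Aqp4* and *Aqp5*. These comparisons with all genes were not matched for level. By mean CPM, *Aqp4* lay at percentile 32.8 of the genes tested, *Cftr* at 58.8 and the others of the 10 at 87.1 to 99.2. In bulk lung tissue, fewer cells of a type and less RNA per cell cannot be told apart.

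**Figure D1:**
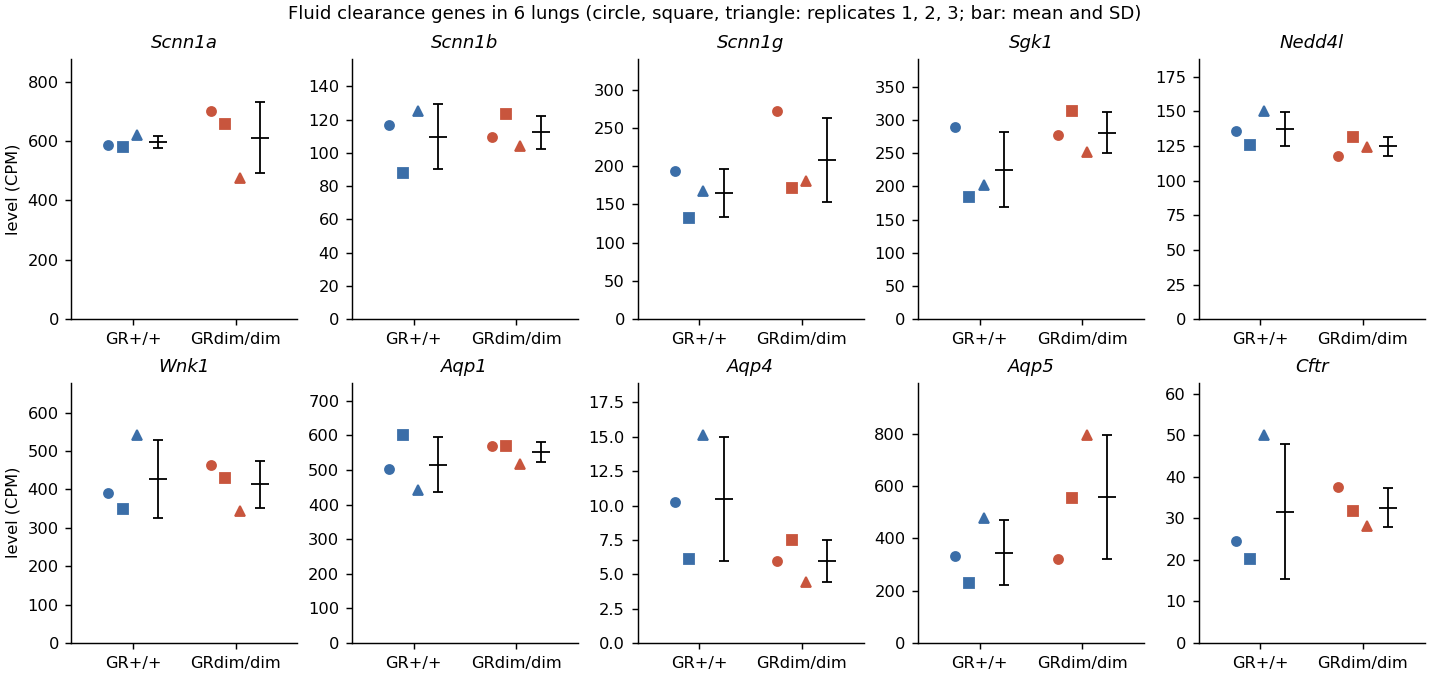
Level in CPM (vertical axis, from 0) of the 10 genes in each of the 6 libraries, by genotype, with the mean and SD of 3 libraries beside the points. The genotypes overlap in every panel, *Scnn1a* lies between 476 and 701 CPM, and *Aqp5* spans 228 to 797 CPM.

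*Scnn1a* (chromosome 6 from 125320659 to 125344943, + strand) encodes the alpha subunit, without which no functional channel forms. It measured 588, 581 and 620 CPM in GR+/+ and 701, 657 and 476 CPM in GRdim/dim. The GR+/+ libraries lay close together and inside the range of the GRdim/dim libraries, of which replicates 1 and 2 were above and replicate 3 below them. edgeR gave a log2 fold change of 0.04 (standard error 0.20, 95% interval -0.41 to 0.48, edgeR adjusted *p* = 0.978). On the linear scale the interval ran from 0.754 to 1.39 of the GR+/+ level.

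*Scnn1b* (chromosome 7 from 121865038 to 121918514, + strand) encodes the beta subunit. Its level was 116.5, 87.9 and 125 CPM in GR+/+ and 109, 123.5 and 104 CPM in GRdim/dim. All 3 GRdim/dim libraries fell inside the GR+/+ range. Between genotypes the log2 fold change was 0.03 (standard error 0.18, 95% interval -0.36 to 0.43, edgeR adjusted *p* = 0.977).

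*Scnn1g* (chromosome 7 from 121734479 to 121768475, + strand), the gamma subunit, is the neighbouring gene of *Scnn1b* on that chromosome. It was counted at 194, 132 and 168 CPM in GR+/+ and at 272, 172 and 181 CPM in GRdim/dim. GRdim/dim replicate 1 was the highest of the 6 libraries, and the other two GRdim/dim libraries lay between GR+/+ replicates 3 and 1. The log2 fold change of 0.34 (standard error 0.22, 95% interval -0.16 to 0.83) did not pass the test (edgeR adjusted *p* = 0.706), and it was 0.11 without GRdim/dim replicate 1.

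The proportions of the subunits were compared per kilobase of gene length. The ratio of *Scnn1b* to *Scnn1a* was 0.288 ± 0.044 in GR+/+ and 0.295 ± 0.050 in GRdim/dim (SD, n = 3 each). The ratio of *Scnn1g* to *Scnn1a* was 0.381 ± 0.072 and 0.474 ± 0.098. Both ratios overlapped between genotypes, and the alpha subunit had the highest level of the 3 per kilobase in each library. *Scnn1a* amounted to 2.44% to 3.35% of the summed CPM of 8 alveolar type 2 markers in GR+/+ and to 1.85% to 4.04% in GRdim/dim. That marker sum was 17340 to 25380 CPM in GR+/+ and 17330 to 25770 CPM in GRdim/dim, with no marker at 0 in all libraries. *Sftpc* alone was 9325 to 14860 CPM in GR+/+ and 9270 to 16390 CPM in GRdim/dim. Of the 8 markers, 2 had a log2 fold change above 0 and 6 below, with a median of -0.14.

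*Sgk1* (chromosome 10 from 21882184 to 21999903, + strand), the kinase that protects ENaC from removal and the gene with the palindrome shown above, did not pass the test. It measured 290, 184.5 and 202 CPM in GR+/+ and 277, 313 and 252 CPM in GRdim/dim. The 3 GRdim/dim libraries were above GR+/+ replicates 2 and 3, and GR+/+ replicate 1 lay among them. The log2 fold change was 0.32 (standard error 0.21, 95% interval -0.14 to 0.78, edgeR adjusted *p* = 0.699), so the interval reached down to 0.906 of the GR+/+ level. Without GR+/+ replicate 1 the log2 fold change was 0.54, and it was 0.20 without GR+/+ replicate 2. Of the 31-base windows of its main transcript, 1.15% also occurred in transcripts of other genes, most often of *Gm11025*. How such reads were assigned is not given in the sources used here.

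*Nedd4l* (chromosome 18 from 64887705 to 65217831, + strand), the ligase that removes ENaC, had the narrowest interval of the 10 genes. It measured 136, 126 and 150.1 CPM in GR+/+ and 118, 132 and 124 CPM in GRdim/dim. GR+/+ replicates 1 and 3 were above all GRdim/dim libraries, and replicate 2 lay among them. edgeR gave a log2 fold change of -0.14 (standard error 0.15, 95% interval -0.48 to 0.20, edgeR adjusted *p* = 0.848). The ratio of *Sgk1* to *Nedd4l* per kilobase was 6.25, 4.30 and 3.94 in GR+/+ and 6.89, 6.98 and 5.95 in GRdim/dim. The ratios overlapped, with GR+/+ replicate 1 above GRdim/dim replicate 3.

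*Wnk1* (chromosome 6 from 119923969 to 120038672, - strand), a kinase that senses chloride and acts on ion transport through the kinases SPAK and OSR1, gave 391, 349 and 542 CPM in GR+/+ and 464, 431 and 344 CPM in GRdim/dim. The highest and the second lowest library were both GR+/+. Between genotypes the log2 fold change was -0.05 (standard error 0.22, 95% interval -0.53 to 0.43, edgeR adjusted *p* = 0.973), and its sign changed with a covariate for sex-linked expression.

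*Aqp5* (chromosome 15 from 99590782 to 99594829, + strand) encodes the apical water channel of alveolar type 1 cells and had the largest positive difference of the 10 genes. It measured 332, 228 and 477 CPM in GR+/+ and 322, 553 and 797 CPM in GRdim/dim. GRdim/dim replicates 2 and 3 were above all GR+/+ libraries, and replicate 1 lay below 2 of them. The log2 fold change was 0.69 (standard error 0.34, 95% interval -0.07 to 1.45, unadjusted *p* = 0.0715, edgeR adjusted *p* = 0.575). The level in GRdim/dim was thus 1.61 times that in GR+/+, with an interval from 0.951 to 2.74. Without GRdim/dim replicate 3 the log2 fold change was 0.34, the lowest of all alternatives, and the highest was 0.99 (DESeq2 without GR+/+ replicate 3). The adjusted *p* ranged from 0.0659 (edgeR without a filter on low counts) to 0.885 (DESeq2 without GR+/+ replicate 2).

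The summed level of 8 alveolar type 1 markers was set beside *Aqp5*. It was 5313 to 7308 CPM in GR+/+ and 5073 to 5788 CPM in GRdim/dim, with a median log2 fold change of -0.25 over the markers, of which 7 were below 0 and none was at 0 reads in all libraries. *Aqp5* amounted to 6.14%, 4.29% and 6.52% of that sum in GR+/+ and to 5.77%, 10.9% and 13.8% in GRdim/dim. The share was higher in GRdim/dim replicates 2 and 3 than in every GR+/+ library, while replicate 1 lay inside the GR+/+ range. The part of alveolar type 1 content in the *Aqp5* values was not tested.

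*Aqp1* (chromosome 6 from 55336432 to 55348555, + strand), the water channel of the lung endothelium, measured 504, 602 and 442 CPM in GR+/+ and 569, 569 and 518 CPM in GRdim/dim. The GRdim/dim libraries all fell inside the GR+/+ range. edgeR gave a log2 fold change of 0.10 (standard error 0.19, 95% interval -0.32 to 0.51, edgeR adjusted *p* = 0.934). *Aqp1* was set beside the summed CPM of 8 endothelial markers. It amounted to 15.2% ± 1.40 of that sum in GR+/+ and to 15.9% ± 2.15 in GRdim/dim (SD, n = 3 each). These markers did not move together, with log2 fold changes from -0.50 to 0.94, 3 above and 5 below 0. At an unadjusted edgeR *p* below 0.05, 3 were higher and 1 lower, beside 9.6% of all genes. The part of endothelial content in the *Aqp1* values was not tested.

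*Aqp4* (chromosome 18 from 15389394 to 15403684, - strand), a basolateral water channel of airway epithelium, was the lowest of the 10 genes and the only one with an unadjusted *p* below 0.05. It measured 10.2, 6.12 and 15.2 CPM in GR+/+ and 5.99, 7.52 and 4.46 CPM in GRdim/dim. GR+/+ replicates 1 and 3 were above all GRdim/dim libraries, whereas GR+/+ replicate 2 was below GRdim/dim replicate 2. Between genotypes the log2 fold change was -0.81 (standard error 0.35, 95% interval -1.60 to -0.03, unadjusted *p* = 0.0442), and it did not pass the adjustment over all genes (edgeR adjusted *p* = 0.5). It was -0.44 without GR+/+ replicate 3. The summed level of 6 ciliated cell markers, which share the airway epithelium with *Aqp4*, was 465, 487 and 808 CPM in GR+/+ and 321, 565 and 592 CPM in GRdim/dim. Of these 6 markers, 5 were below 0 and 1 above, with a median log2 fold change of -0.47. Of 5 club cell markers, also of the airway epithelium, 4 were above 0 and 1 below, with a median of 0.10. Their summed level was 15180 to 29640 CPM in GR+/+ and 21300 to 27460 CPM in GRdim/dim. The part of airway content in the *Aqp4* values was not tested.

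*Cftr* (chromosome 6 from 18170687 to 18322768, + strand), the chloride channel mutated in cystic fibrosis, measured 24.4, 20.1 and 50.1 CPM in GR+/+ and 37.5, 31.9 and 28.2 CPM in GRdim/dim. GR+/+ replicate 3 was the highest and GR+/+ replicates 1 and 2 the lowest of the 6 libraries. The log2 fold change was 0.04 (standard error 0.31, 95% interval -0.65 to 0.73, edgeR adjusted *p* = 0.983), and it was 0.55 without GR+/+ replicate 3.

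**Figure D2:**
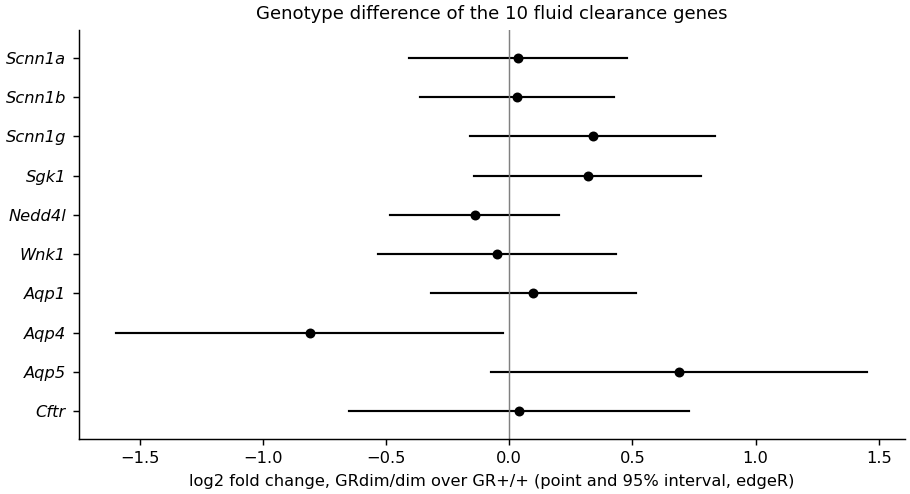
Log2 fold change of GRdim/dim over GR+/+ (horizontal axis) for the 10 genes, with points for the edgeR estimate and lines for its 95% interval. The interval includes 0 for 9 of the 10 genes and lies from -1.60 to -0.03 for *Aqp4*.

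The exact permutation test of single genes, which with 3 libraries per genotype cannot go below a two-sided *p* of 0.1, gave 0.2 for *Nedd4l* and *Aqp4*, 0.3 for *Sgk1* and *Aqp5*, 0.4 for *Scnn1g* and at least 0.6 for the other 5 genes. None reached the smallest value, because no gene was free of overlap.

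Levels of different genes were compared per kilobase of gene length, as means of CPM over the 6 libraries. *Aqp1* (203 CPM per kilobase), *Aqp5* (174) and *Scnn1a* (146) were the highest. *Scnn1g* (62.3), *Sgk1* (51.6) and *Scnn1b* (42.2) formed the middle of the order. *Wnk1* (18.4), *Nedd4l* (9.11), *Cftr* (4.13) and *Aqp4* (1.62) followed. Of the 9 pairs of neighbours in this order, 5 overlapped in their ranges over libraries, namely those within the first 3 genes, those within the next 3, and *Cftr* with *Aqp4*. The 4 other steps were free of overlap, and the first of them lay between *Scnn1a* and the other two ENaC subunits.

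**Figure D3:**
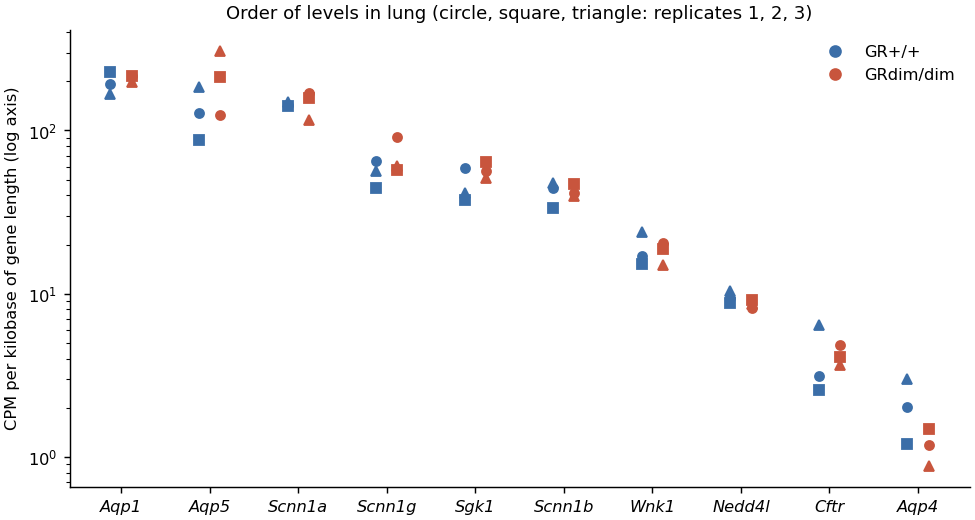
Level per kilobase of gene length (vertical log axis, CPM per kilobase) of the 10 genes in order of their mean, with 1 point per library and the genotypes in 2 colours. *Aqp1* has a mean of 203 and *Aqp4* of 1.62 CPM per kilobase.

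The order depends on the length used, since the deposited gene lengths cover all exons of a gene. Per kilobase of the principal transcript, *Aqp5* (251 CPM per kilobase) came before *Aqp1* (203) and *Scnn1a* (172.5), and *Sgk1* (103) before *Scnn1g* (62.3). *Nedd4l*, whose deposited length is 14382 bases against 3792 bases in the principal transcript, stood at 34.5 CPM per kilobase on this scale. *Cftr* (5.08) and *Aqp4* (1.63) stayed last.

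Across libraries the 10 genes did not vary as 1 group. GR+/+ replicate 3 was the highest library for 5 of them, *Scnn1b*, *Nedd4l*, *Wnk1*, *Aqp4* and *Cftr*, and the lowest for *Aqp1*. It was also the deepest library and had the highest summed markers of alveolar type 1 (7308 CPM), club (29640 CPM) and ciliated cells (808 CPM) and the lowest of endothelial (2679 CPM) and smooth muscle cells (186 CPM). The part of these shifts in the levels of the 10 genes was not tested. On log2 CPM over the 6 libraries, which share genotype groups and depth, Pearson's r was highest for *Nedd4l* with *Aqp4* (0.91) and *Wnk1* with *Cftr* (0.91), and lowest for *Nedd4l* with *Aqp1* (-0.80). Between ENaC subunits r was 0.36 to 0.41. *Sgk1* and *Scnn1g* had an r of 0.61, and *Sgk1* and *Scnn1a* of 0.24. These values are descriptions over 6 points.

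For each of the 10 genes up to 3 tested genes with the most similar pattern over the 6 libraries are given by the same measure. The closest to *Scnn1a* were *Zbtb11* (0.991), *Ppp2r3a* (0.99) and *Slain2* (0.99), to *Scnn1b* *Gas2l3* (0.983), *Hdlbp* (0.982) and *Lrrc18* (0.979), and to *Scnn1g* *Depdc1a* (0.997) and *Chrna7* (0.994). The closest to *Sgk1* were *Dcaf12* (0.993), *Pknox1* (0.986) and *Mmp14* (0.982), to *Nedd4l* *Wdr95* (0.988), *Maats1* (0.986) and *Slc25a13* (0.978), and to *Wnk1* *Larp4* (0.997), *Arfgef1* (0.989) and *Zzz3* (0.987). No gene of the 10 and no other gene of the pathway was among them. For *Aqp1* they were *Idh3g* (0.986), *1810014B01Rik* (0.983) and *Csf1r* (0.981), and for *Aqp4* *Lrrk2* (0.997), *Smcr8* (0.989) and *Grhl2* (0.988). For *Aqp5* they were *Maff* (0.984), *Metrnl* (0.984) and *1110038B12Rik* (0.983), and for *Cftr* *Eif3j1* (0.986), *Emc7* (0.985) and *Sec13* (0.977). With 6 libraries and 16568 genes, correlations of this size are the top of a long list.

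The other genes of the pathway were a list of 47 genes for cleavage of ENaC, ubiquitin ligation, kinases, corticosteroid control, further aquaporins, chloride transport and the sodium pump. All 47 were counted and 40 passed the filter. With edgeR 0 of the 40 were DEGs, beside 0.169% of all genes, and 2 were higher and 2 lower at an unadjusted *p* below 0.05, beside 9.6% of all genes. With DESeq2 3 of them were DEGs, *Stk39*, *Slc26a4* and *Tsc22d3*, beside 1.71% of all genes. Their median log2 fold change was -0.10, with 10 above and 30 below 0. The genotypes did not overlap for 5 of the 40, *Stk39*, *Slc26a4*, *Tsc22d3*, *Klhl2* and *Hsd11b1*, beside 14.8% of all genes. The 7 genes that did not pass the filter were *Sgk2*, *Wnk3*, *Aqp2*, *Aqp6*, *Aqp7*, *Aqp8* and *Aqp12*, each with at most 16 reads in any library.

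*Stk39* (chromosome 2 from 68210445 to 68472268, - strand) encodes SPAK, the kinase through which WNK kinases act on chloride cotransporters. It measured 20.1, 17.7 and 20.97 CPM in GR+/+ and 43.1, 46.3 and 38.0 CPM in GRdim/dim. Every GRdim/dim library was above every GR+/+ library. edgeR gave a log2 fold change of 1.12 (standard error 0.18, 95% interval 0.72 to 1.52), with an edgeR adjusted *p* of 0.0503, just above the threshold. DESeq2 gave an adjusted *p* of 3.03e-05, and over all alternatives the adjusted *p* ranged from 1.34e-06 (DESeq2 without GRdim/dim replicate 3) to 0.211 (edgeR without GR+/+ replicate 2). Its upstream kinase *Wnk1* and the related kinase *Oxsr1* (OSR1) overlapped between genotypes.

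**Figure D4:**
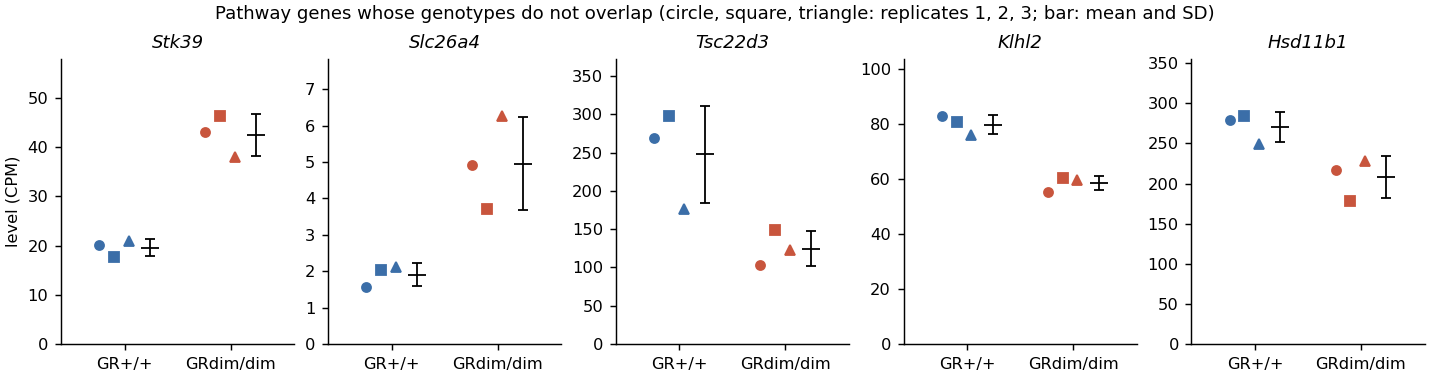
Level in CPM (vertical axis, from 0) of the 5 pathway genes whose genotypes do not overlap, in each of the 6 libraries, with the mean and SD of 3 libraries beside the points. *Stk39* lies between 17.7 and 20.97 CPM in GR+/+ and between 38.0 and 46.3 CPM in GRdim/dim.

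*Slc26a4* (chromosome 12 from 31519827 to 31559969, - strand) encodes pendrin, an anion exchanger of airway epithelium. It was low, at 1.55, 2.04 and 2.13 CPM in GR+/+ and 4.91, 3.70 and 6.26 CPM in GRdim/dim, from 26 to 97 reads per library. All GRdim/dim libraries were above all GR+/+ libraries. Between genotypes the log2 fold change was 1.36 (standard error 0.34), with an edgeR adjusted *p* of 0.216 and a DESeq2 adjusted *p* of 0.0234 (0.0234 to 0.501 over all alternatives).

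*Tsc22d3* (chromosome X from 140539528 to 140600659, - strand) encodes GILZ, a glucocorticoid-induced protein that also acts on ENaC at the cell surface. The study used it on these libraries as a GR target, so its direction is not independent evidence. It measured 269, 298 and 177 CPM in GR+/+ and 103, 148.5 and 123 CPM in GRdim/dim, so that the genotypes were separate. The log2 fold change was -0.99 (standard error 0.23), with an edgeR adjusted *p* of 0.175 and a DESeq2 adjusted *p* of 0.00796 (0.000121 to 0.399 over all alternatives). *Sgk1*, also known as a glucocorticoid-induced gene, had a log2 fold change of 0.32 in the same libraries.

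*Klhl2* (chromosome 8 from 64739675 to 64850017, - strand), an adaptor that brings WNK kinases to the CUL3 ubiquitin ligase, measured 82.9, 80.6 and 75.9 CPM in GR+/+ and 55.4, 60.2 and 59.8 CPM in GRdim/dim. The spread within each genotype was small and the genotypes were separate. The log2 fold change of -0.45 (standard error 0.15, unadjusted *p* = 0.013) did not pass the adjustment (edgeR adjusted *p* = 0.374). *Hsd11b1*, which regenerates active glucocorticoid and was named after its values were seen, measured 279, 284 and 249.5 CPM in GR+/+ and 217, 178 and 228 CPM in GRdim/dim, with a log2 fold change of -0.38 and an edgeR adjusted *p* of 0.521.

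In the remaining groups of the list no gene had an unadjusted *p* below 0.05. Of 8 proteases and inhibitors that set the cleavage of ENaC, 7 were below 0, and the smallest *p* was that of *Furin*, a protease that cleaves ENaC subunits (log2 fold change -0.24, edgeR adjusted *p* = 0.726). Of 3 further aquaporins tested, *Aqp11*, an intracellular water channel, had the smallest *p* (log2 fold change -0.83, edgeR adjusted *p* = 0.521), at 1.87 to 5.94 CPM. *Atp1b1*, a subunit of the sodium pump, had a log2 fold change of -0.32 (edgeR adjusted *p* = 0.727).

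**Figure D5:**
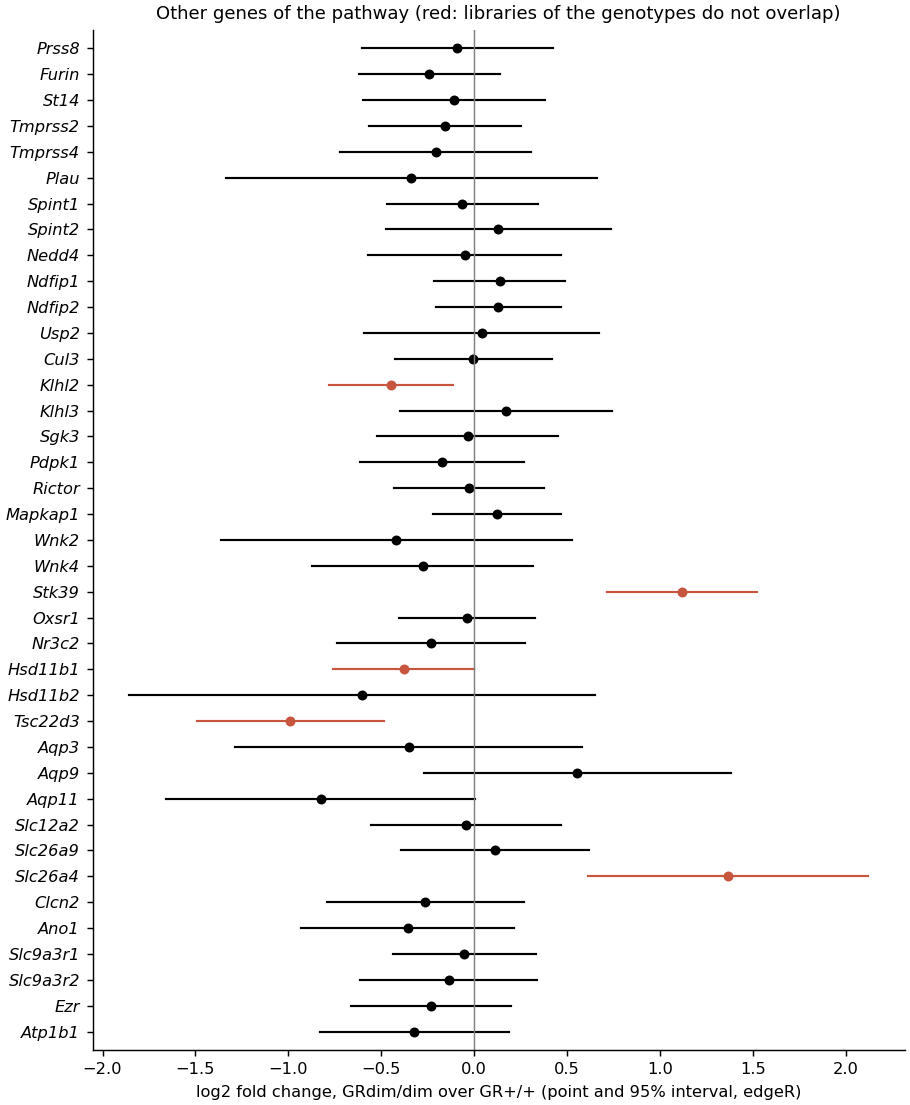
Log2 fold change of GRdim/dim over GR+/+ (horizontal axis) for tested genes of the pathway list (all of the 40 but 1), with points for the edgeR estimate and lines for its 95% interval, in red where the libraries of the genotypes do not overlap. *Stk39* at 1.12 and *Slc26a4* at 1.36 lie farthest to the right, and *Tsc22d3* at -0.99 farthest to the left.

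Markers of blood and immune cells were set beside these values, and none of them was a DEG with edgeR. At an unadjusted edgeR *p* below 0.05, 4 of 5 B cell and 4 of 5 T cell markers were higher. So were 2 of 5 neutrophil and 1 of 5 erythroid markers, and 1 of 5 alveolar macrophage markers was lower. Over all genes the share at this threshold was 9.6%, either direction. DESeq2 called 1 neutrophil, 1 T cell and 1 alveolar macrophage marker, beside 1.71% of all genes with an adjusted *p*. Summed erythroid markers were 1110 to 4141 CPM in GR+/+ and 1728 to 4336 CPM in GRdim/dim. Summed neutrophil markers were 221 to 433 CPM in GR+/+ and 314 to 1010 CPM in GRdim/dim, B cell markers 48.8 to 114.5 and 123.5 to 430 CPM, and T cell markers 12.7 to 27.6 and 34.5 to 42.2 CPM. Alveolar macrophage markers were 327 to 365 CPM in GR+/+ and 164 to 258 CPM in GRdim/dim. Their part in the levels of *Stk39*, *Klhl2*, *Tsc22d3* and *Hsd11b1* was not tested. Without use of strand, reads of *Nedd4l* and of its antisense neighbour *A330084C13Rik*, which share 277 bases, cannot be told apart, but the neighbour held only 4 to 25 reads per library.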

How the data were processed

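Poly(A)-captured RNA from the lungs of 6 mice, 1 library per mouse, was sequenced by a company. For each gene the authors deposited raw read counts per library, neither normalized nor pooled. The submitters' processing notes name mm10 and DESeq2, and the aligner, counting tool and use of strand are not given in the sources used here. Genotype and number of each library were taken from the labels. The 10 genes, the lists and the tests were chosen with earlier results of these data known.

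Counts were fitted with edgeR 4.0.16 under R 4.3.3 (filterByExpr, TMM factors, robust quasi-likelihood test), with Benjamini-Hochberg adjustment over 16568 genes. Log2 CPM used a prior count of 2. DESeq2 1.42.0, which gave an adjusted *p* for 15917 genes, and edgeR's likelihood-ratio test were alternatives, beside other scalings, filters, covariates and each library left out. Two-sided exact permutation tests were run on log2 CPM of single genes. The procedure was also run on counts simulated with the means and dispersions of these libraries, and the outcome is not given here. Depth was 15687734 to 32082940 counts per library. Replicates differed by more than sampling noise and were used as separate mice.

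Named were the 10 genes, *Nr3c1*, pathway genes that were called, had an unadjusted *p* below 0.05 or the smallest *p* of their group, and for each of the 10 genes the 3 genes with the highest Pearson's r. Coordinates are those deposited with the counts. Of 54532 genes, 54409 were found in GENCODE M21 (GRCm38) by identifier and 53462 had identical coordinates, among them 8 of the 10 genes (not *Nedd4l* and *Aqp4*). A few genes that the rule or the list would name are not reported here.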

Additional observations from a re-analysis of the deposited data

How the results depend on the processing

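None of the 10 genes was called under any of the 19 alternatives run. Signs near 0 were not stable. With a covariate for sex-linked expression *Wnk1* had a log2 fold change of 0.01 in place of -0.05. Leaving out 1 library, with edgeR or with DESeq2 (the latter added after seeing the data), gave -0.08 to 0.19 for *Scnn1a*, -0.11 to 0.14 for *Scnn1b*, -0.18 to 0.16 for *Wnk1*, -0.0027 to 0.23 for *Aqp1* and -0.21 to 0.55 for *Cftr*. *Scnn1g*, *Sgk1*, *Nedd4l*, *Aqp4* and *Aqp5* kept their sign throughout. Counts depended on the tool and filter. Pathway genes called higher numbered 0 in the report, 2 without a filter on low counts, 1 with at least 10 counts in every library, 2 with DESeq2, 2 with the likelihood-ratio test and 0 to 2 with a library left out. Those called lower numbered 0 in the report, 1 without a filter, 1 with DESeq2, 1 with the likelihood-ratio test and 0 to 1 with a library left out. Over all genes, 12 were called higher, against 255 without a filter, 128 with DESeq2, 117 with the likelihood-ratio test and 1 to 180 with a library left out. There were 16 called lower, against 267, 144, 128 and 3 to 219 in the same order. Among the fits over all genes with a library left out, the lowest counts came with edgeR without GR+/+ replicate 2 and the highest with DESeq2 without GRdim/dim replicate 3. The cause was not tested.

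In the main fit the replicate numbers were not used to pair the mice. The deviations of same-numbered libraries correlated at 0.2175, 0.0361 and -0.0548, and those of differently numbered libraries at -0.2661 to 0.1937. So few pairs cannot exclude a pairing. A fit with the replicate number as a block called 34 genes in all and 0 of the 10 genes.

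Counting error was smallest for the 8 genes with at least 1466 reads per library, whereas *Aqp4* had as few as 69 reads. With 3 mice per genotype, the 95% intervals of the 10 genes were 0.69 to 1.57 wide on the log2 scale, and smaller differences between genotypes may have been missed.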
